A study of Homo sapiens with 8 samples.

Results

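The genes described are the cytosolic ribosomal proteins, which form the large (60S) and small (40S) subunits of the ribosome together with ribosomal RNA. They were chosen by symbol, though with earlier results of these data known. Included were autosomal and X-linked GENCODE release 29 protein-coding genes named RPL or RPS with a number and an optional A, L or X. RPLP0, RPLP1, RPLP2 and RPSA were taken as well. The choice gave 81 genes of 58121 annotated on the autosomes and X, 49 of the large and 32 of the small subunit. Of these, 80 had spliced reads, since RPL10L has no intron, and 79 passed the filter on low counts at day 4, where 13991 genes were tested. RPL3L, which is restricted to striated muscle, was near 0 with at most 0.262 CPM in any library and did not pass it. CPM are junction counts scaled to 1e+06 reads on genes that passed the filter over all 8 libraries, with TMM factors applied.

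The samples were K562 cells, an established human chronic myeloid leukaemia line with erythroid features, grown with 1 ug/ml doxycycline in every group to switch on the modified allele. The study set the SF3B1 K700E mutation against wild-type SF3B1 (WT). SF3B1 is the subunit of the U2 snRNP that helps to place the branch point before a 3' splice site, and K700E is its most frequent substitution in myelodysplastic syndromes. The groups were K700E at day 4, WT at day 4, K700E at day 8 and WT at day 8, with 2 libraries each and 8 in all. Whether the lines are single clones, and whether replicates are separate cultures, is not given in the sources used here, so p-values measure only the spread between these libraries, which may be technical. The values are counts of reads across splice junctions from strand-specific total RNA libraries.

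Ribosomal proteins are made in near-equal numbers, assembled on ribosomal RNA in the nucleolus and exported as subunits. Their messenger RNAs are abundant and most begin with a terminal oligopyrimidine (TOP) tract, a C followed by pyrimidines, through which mTOR signalling and LARP1 control their translation and stability. Loss of 1 copy of certain members gives Diamond-Blackfan anaemia, a failure of red cell production, and RPS14 is lost in the 5q- syndrome, a myelodysplastic syndrome.

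Libraries held 49338071 to 77750812 uniquely mapped junction reads. At the cryptic 3' splice sites (acceptors) of 12 known SF3B1 hotspot targets, the median use was 43.5% and 39.3% in the K700E and 1.55% and 2.91% in the WT libraries at day 4. The day 8 libraries labelled K700E had medians of 3.48% and 42.4%, and those labelled WT 0.255% and 47.7%, so replicate 1 labelled K700E and replicate 2 labelled WT went against their labels. No library was moved, and day 8 results are given under the labels. The labelled WT day 8 libraries also held few rare junctions: 1-read junctions were 1.02% and 3.25% of the unannotated ones at the members' donors, against 25.2% to 37.8% in the other libraries. A label calls the cells epithelial. Of 8 erythroid markers 6 had at least 1 CPM in every library, as had 4 of 6 epithelial, 1 of 4 myeloid and 0 of 4 lymphoid markers. At day 4 the summed erythroid markers were at 614 and 280.2 CPM in K700E and 621 and 564 CPM in WT, and the epithelial ones at 688 and 488 CPM in K700E and 868 and 987 CPM in WT. The part of either in the results below was not tested.

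The sequences that the results return to are the starts of the transcripts and the acceptors used in K700E. Of the 81 members, 64 had an entry in the RefSeq promoter table (GRCh38.p14). A C at an annotated start followed by at least 4 C or T, read on the strand of the gene, was found in 46 of them (71.9%), against 1404 of 27305 genes in the table (5.14%). Within 10 nt of a start the same tract was in 57 members (89.1%) and in 38.4% of all genes, so a tract near the start is common and one at the start is not. The windows below run from 15 nt before the start to 15 nt from it, with the tract at the start in capitals. RPL24 and RPL27A were chosen for their acceptors, RPSA and RPS14 for their roles, and RPS27 with its paralog RPS27L because only RPS27 of this pair holds a tract.
RPL24 (chr3:101686704-101686733, minus strand): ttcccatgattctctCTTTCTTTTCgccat
RPL27A (chr11:8682777-8682806, plus strand): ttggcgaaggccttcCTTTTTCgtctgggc
RPSA (chr3:39406705-39406734, plus strand): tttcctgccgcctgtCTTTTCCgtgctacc
RPS14 (chr5:150449725-150449754, minus strand): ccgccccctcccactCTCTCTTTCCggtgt
RPS27 (chr1:153990747-153990776, plus strand): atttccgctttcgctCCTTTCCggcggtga
RPS27L (chr15:63157463-63157492, minus strand): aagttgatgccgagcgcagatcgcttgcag

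The other sequences are the last 30 nt of the introns of RPL24 and RPL27A whose cryptic acceptors are described below, read from GENCODE release 29 transcripts that retain them. Capitals mark the AG of the cryptic acceptor and, at the end, the AG of the reference acceptor.
RPL24 (chr3:101682493-101682522, minus strand): cttttgccttaAGttacttttaccccacAG
RPL27A (chr11:8683976-8684005, plus strand): ccggccccacgtAGctttgtattcctgcAG

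The first comparison asked whether the members' spliced RNA differed between K700E and WT at day 4. Together they took 8.75% and 8.99% of unique junction reads in the K700E libraries, against 10.4% and 10.6% in the WT libraries. Both K700E libraries were below both WT libraries, for the large subunit (5.32% and 5.57% in K700E, 6.40% and 6.59% in WT) and for the small subunit (3.43% and 3.42% in K700E, 3.99% and 4.04% in WT). With 2 libraries against 2, an exact two-sided permutation test cannot go below p = 0.333, so no test is given for these shares. A share can be lower because these RNAs are fewer or because other spliced RNAs are more abundant, and the files cannot tell them apart. At day 8 the shares were 12% and 8.12% in the libraries labelled K700E and 8.22% and 11.2% in those labelled WT, and the groups overlapped.

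**Figure D1:**
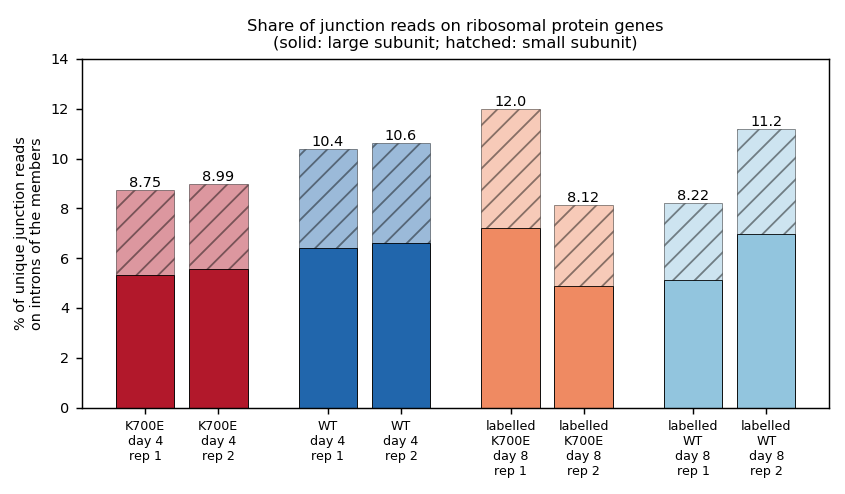
Percent of unique junction reads (vertical axis) on introns of ribosomal protein genes in each of the 8 libraries, with the large subunit solid and the small subunit hatched. The K700E day 4 libraries stand at 8.75% and 8.99%, below the WT day 4 libraries at 10.4% and 10.6%, while the day 8 groups overlap.

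Gene by gene, no member passed the test across all genes. edgeR's quasi-likelihood test called 0 of the 79 members at an adjusted p under 0.05, against 74 of 13991 genes (0.529%), and 44 members had an unadjusted p under 0.05. All 44 were lower in K700E, a share of 55.7%, where 10.5% of all genes tested were lower at that threshold. Such members numbered 49 with the replicate number as a block, 35 by DESeq2, 29 without TMM scaling and 8 in the 8-library model. In the same order, 1639 of 13991, 1605 of 19722, 1070 of 13991 and 769 of 14902 genes were lower at that threshold. The log2 change was below 0 for 76 of 79 members (48.6% of all genes), and 72 had both K700E libraries below both WT libraries (91.1%, against 28.2% of all genes). The median log2 change was -0.30, with quartiles of -0.41 and -0.22, while the median over all genes was 0.02. The TMM factors behind the CPM were 0.987 and 0.970 in K700E and 0.922 and 0.890 in WT at day 4. Division by them raised CPM in WT more than in K700E. Without TMM scaling the median of all genes moved to 0.11 and that of the members to -0.20. DESeq2 called 10 members, all lower (3.97% of all genes were called lower), 10 were called lower without K700E replicate 1 (9.1% of all genes) and 9 without K700E replicate 2 (4.94%), but 0 without WT replicate 1 or without WT replicate 2. Without the filter on low counts 8 were called lower (4.08% of all genes): RPL9, RPL14, RPL15, RPL32, RPL37, RPL41, RPS24 and RPSA. The same 8 were among those called by DESeq2 and when either K700E library was left out. Leaving out a library leaves 1 in its group, which is assumed to vary like the other group, and the share of all genes called lower was then larger too, so these calls are no independent support. With the replicate number as a block RPL14 alone was called (0.529% of all genes were called lower).

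The difference was spread over introns and over both subunits. Of 331 introns of the members' reference transcripts with a mean of at least 100 reads at day 4, 294 (88.8%) had both K700E libraries below both WT libraries, where 28.2% of 85155 annotated introns of all genes at that depth did. In 61 members every such intron did. The median log2 change was -0.31 over 47 large and -0.28 over 32 small subunit members, with 29 and 15 of them at an unadjusted p under 0.05. Among the members in the promoter table that were tested, the median was -0.32 for the 46 with a pyrimidine tract at a start and -0.24 for the 17 without. Ranges overlapped, from -0.98 to -0.09 with a tract and from -0.93 to 0.18 without.

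**Figure D2:**
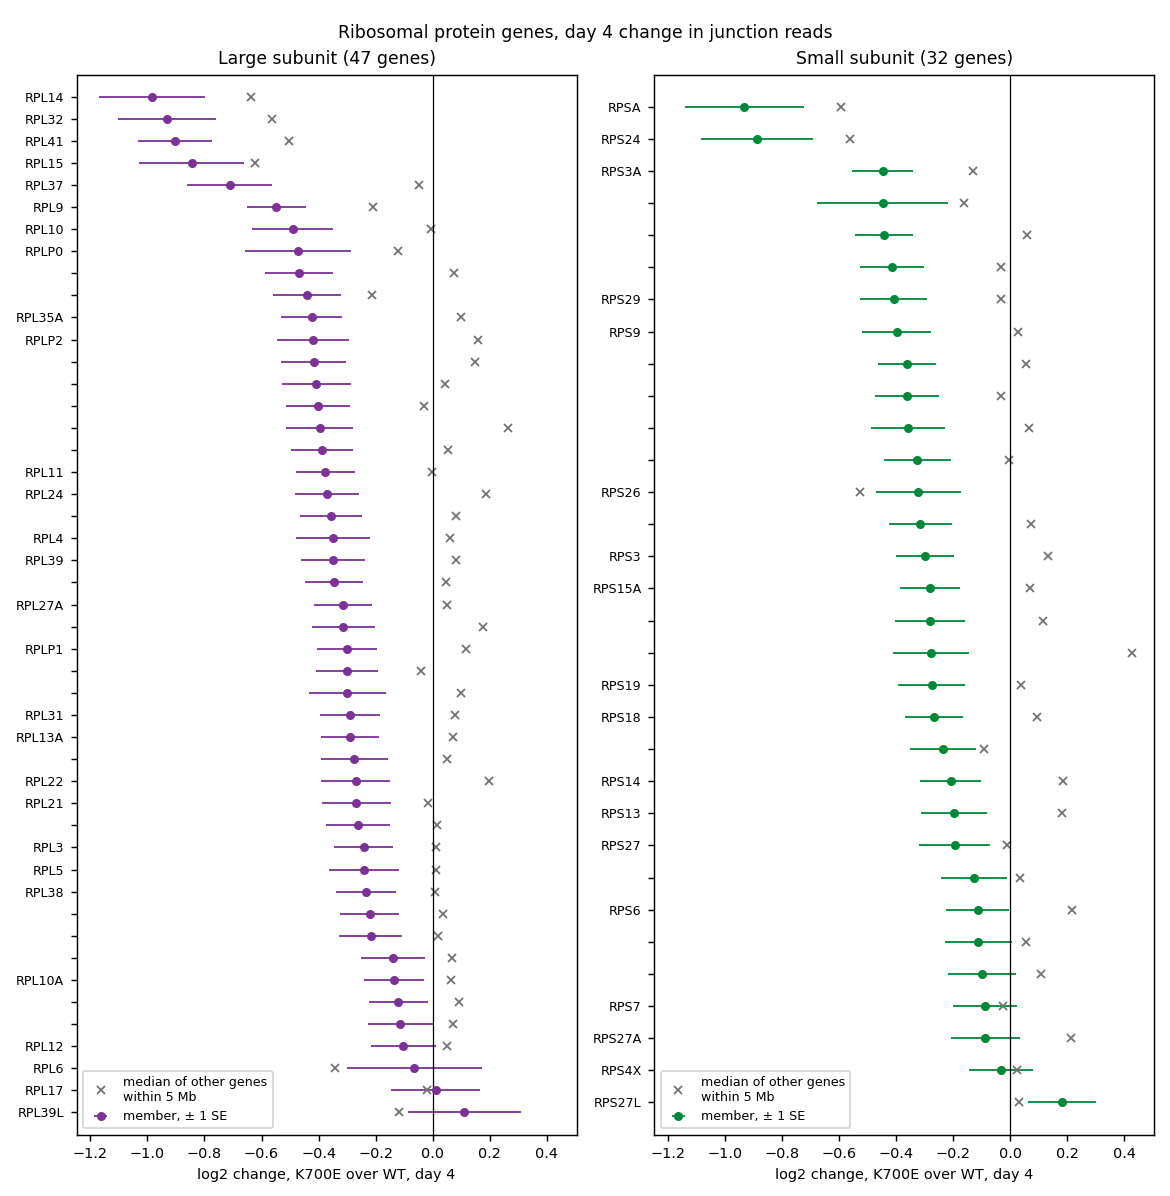
log2 change of K700E over WT at day 4 (horizontal axis) of the 79 members tested, with 1 standard error, split by subunit and ordered by size; crosses are the median change of other tested genes within 5 Mb, and only genes named in the text are labelled. Nearly all members lie left of 0 with a median of -0.30, and 7 lie below -0.60.

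In 7 members the log2 change was below -0.60, as it was in 12.8% of all genes, and the other 72 ran from -0.55 to 0.18. RPL41 (ENSG00000229117.8, chromosome 12, 56116586 to 56117943, plus strand), a very short basic peptide at the interface of the subunits, had 157 and 142 CPM in K700E against 294 and 271 CPM in WT (log2 change -0.90, SE 0.13, adjusted p 0.0627 by edgeR). This was the lowest adjusted p among members, and the groups did not overlap. RPL14 (ENSG00000188846.13, chromosome 3, 40457292 to 40468587, plus strand), a large subunit protein, had 1120.3 and 1504 CPM in K700E against 2365 and 2885 CPM in WT (log2 change -0.98, SE 0.19, adjusted p 0.0887). RPSA (ENSG00000168028.13, chromosome 3, 39406689 to 39412542, plus strand), a small subunit protein also known as the laminin receptor, had 1001 and 1465 CPM in K700E against 2187 and 2575 CPM in WT (log2 change -0.93, SE 0.21, adjusted p 0.109). In both, K700E replicate 1 was the lowest of the day 4 libraries and WT replicate 2 the highest.

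RPL32 (ENSG00000144713.12, chromosome 3, 12834485 to 12841588, minus strand), a large subunit protein, had 720.5 and 979 CPM in K700E and 1652 and 1625 CPM in WT (log2 change -0.93). RPL15 (ENSG00000174748.20, chromosome 3, 23916545 to 23924374, plus strand), needed early in assembly of the large subunit and mutated in Diamond-Blackfan anaemia, had 371 and 515 CPM in K700E and 788 and 823 CPM in WT (log2 change -0.85). RPS24 (ENSG00000138326.19, chromosome 10, 78033732 to 78056813, plus strand), another gene of that anaemia, had 1089 and 1595 CPM in K700E and 2447 and 2578 CPM in WT (log2 change -0.89). Each had K700E replicate 1 as its lowest day 4 library, and in none did the groups overlap. RPL37 (ENSG00000145592.13, chromosome 5, 40825262 to 40835335, minus strand), a zinc-binding large subunit protein, had 339 and 285 CPM in K700E and 553 and 478 CPM in WT (log2 change -0.71), and here K700E replicate 2 was the lowest.

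Genes beside 6 of these 7 were lower too. The median log2 change of other tested genes within 5 Mb was -0.64 around RPL14, -0.62 around RPL15, -0.59 around RPSA, -0.56 around RPS24, -0.56 around RPL32 and -0.50 around RPL41, and -0.05 around RPL37. RPL14, RPL15, RPL32 and RPSA all lie on chromosome 3. Less the median of their neighbours, an alternative chosen after seeing the data, the members' median was -0.35 and 74 of 79 remained below 0. On that scale RPL14 was at -0.35, RPSA at -0.34, RPL32 at -0.37 and RPL41 at -0.40. RPS24 was then at -0.33, RPL15 at -0.22 and RPL37 at -0.66. The neighbour medians of all members had a median of 0.04. The part of these neighbourhoods in the single genes' values was not tested further. RPS26, which binds messenger RNA in the exit channel of the small subunit, lies on chromosome 12 near RPL41 among neighbours at -0.53. It had 144 and 173 CPM in K700E and 211 and 189 CPM in WT (log2 change -0.32, and 0.20 less its neighbours).

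**Figure D3:**
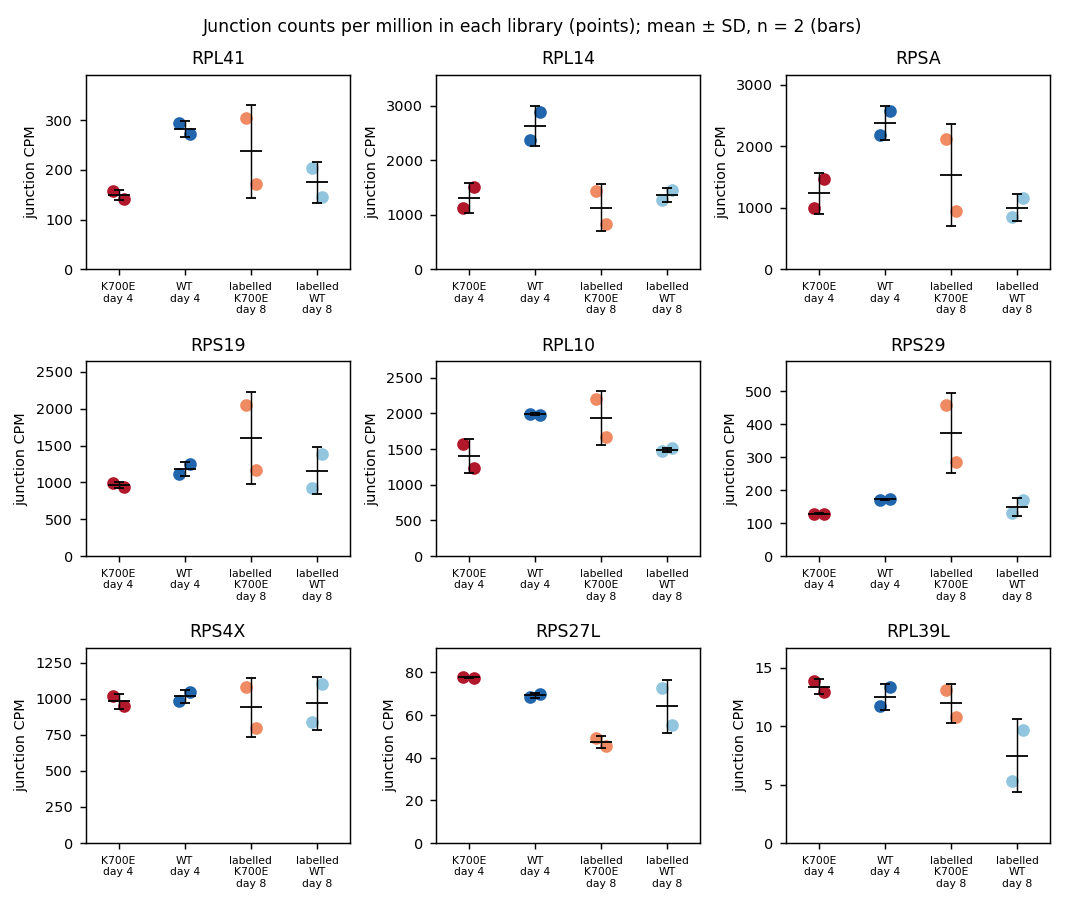
Junction CPM (vertical axis, from 0) of 9 members in each library, with mean and SD of the 2 libraries of a group. RPL41, RPL14 and RPSA are lower in both K700E day 4 libraries than in both WT ones, RPS4X overlaps, and RPS27L is higher in K700E at day 4 and lower in the libraries labelled K700E at day 8.

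The stalk proteins RPLP0, RPLP1 and RPLP2, which draw the GTPase translation factors to the ribosome, were all lower without overlap. So were 91.1% of all members and 28.2% of all genes. RPLP0 had 2753 and 3958 CPM in K700E against 4594 and 4829.9 CPM in WT, with K700E replicate 1 far below replicate 2. RPLP1 had 1935 and 1994 CPM in K700E and 2335 and 2557 CPM in WT. RPLP2 had 1199 and 1224 CPM in K700E and 1493 and 1782 CPM in WT. Their log2 changes were -0.47, -0.30 and -0.42, and each missed the adjusted threshold.

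The 18 Diamond-Blackfan anaemia genes among the members all had both K700E libraries below both WT libraries (28.2% of all genes, 91.1% of all members), with a median log2 change of -0.29, close to that of the members as a whole. None was called by edgeR, and 8 had an unadjusted p under 0.05, as had 44 of the 79 members (10.5% of all genes were lower at that threshold). RPS19, the most often mutated of them, had 995 and 940.1 CPM in K700E against 1115 and 1254 CPM in WT (log2 change -0.28, SE 0.12, adjusted p 0.253). RPL5 and RPL11 bind 5S ribosomal RNA and, when assembly stalls, the p53 regulator MDM2. RPL5 had 1364 and 1498 CPM in K700E and 1599.7 and 1819 CPM in WT. RPL11 had 1487 and 1540.0 CPM in K700E and 1944 and 2030.5 CPM in WT. RPL35A, of the large subunit, had 1088 and 1136 CPM in K700E and 1475 and 1541 CPM in WT (log2 change -0.42). RPS14, of the 5q- syndrome, had 1409 and 1414 CPM in K700E and 1705 and 1592 CPM in WT (log2 change -0.21, SE 0.11, adjusted p 0.324), one of the smaller differences.

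Members with other roles lay in the same range. RPL10, which joins the large subunit last, had 1567 and 1232 CPM in K700E against 1997 and 1978 CPM in WT (log2 change -0.49). RPL13A, which can leave the ribosome to silence inflammatory messenger RNAs, had 2958 and 2754 CPM in K700E and 3430.1 and 3621 CPM in WT (log2 change -0.29). RPL38, which in the mouse favours translation of Hox messenger RNAs, had a log2 change of -0.23, and RPS6, the substrate of the S6 kinases, one of -0.11. RPL22, a large subunit protein that mice can live without, had -0.27, with 44.8% of its reads on introns shared with another gene and left out. RPL24 and RPL27A, which gain cryptic acceptors, had -0.37 and -0.31 and so lay near the median.

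The 6 members with the highest log2 change were RPS27L, RPL39L, RPL17, RPS4X, RPL6 and RPS27A, and 5 of them overlapped between the groups. RPS27L, a p53-induced paralog of RPS27, was the only member with both K700E libraries above both WT libraries, with 77.7 and 77.6 CPM in K700E against 68.5 and 69.9 CPM in WT (log2 change 0.18, SE 0.12, adjusted p 0.440). RPL39L, a paralog of RPL39 best known from male germ cells, had 13.8 and 12.9 CPM in K700E and 11.7 and 13.3 CPM in WT. RPS4X, the X-linked copy of a small subunit protein, had 1020.1 and 946 CPM in K700E and 983 and 1049.5 CPM in WT (log2 change -0.03). RPL6, a large subunit protein, had 1104 and 1785 CPM in K700E and 1463 and 1592 CPM in WT, so that 1 K700E library lay below and 1 above both WT libraries. RPS27A, made as a fusion with ubiquitin, had 2002 and 2229 CPM in K700E and 2139 and 2407 CPM in WT. Without TMM scaling RPS4X, RPL6 and RPS27A were at 0.06, 0.03 and 0.01. RPL17 is uncertain, since 98.5% of its reads lie on introns shared with a readthrough gene and 49.5% of those left map to several places.

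Levels per junction differed far more between members than between groups. As the median CPM over the introns of the reference transcript, which does not depend on how many introns a gene has, the WT day 4 levels ran from 6.06 in RPL39L and 31.0 in RPS27L to 1133 in RPS18, with a median of 362. The lowest after these paralogs were RPS26 at 78.7 and RPS29 at 85.3, and the highest before RPS18, which lies in the head of the small subunit, were RPLP1 at 925, RPLP0 at 739 and RPL32 at 734. In K700E RPS18 was at 903, RPLP1 at 741, RPLP0 at 526 and RPL32 at 380.2. RPL14, RPL22, RPL39 and RPS26 have processed copies in the genome, and 17.4%, 16.9%, 12.3% and 8.04% of their reads mapped to several places and were left out, so their levels are uncertain to that extent.

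Other genes of translation were placed beside the members. Of 7 ribosomal proteins outside the choice by symbol, among them FAU and RACK1, 6 had a log2 change below 0 (median -0.31). Of 17 other RNAs known to carry TOP tracts, GAS5 and SNHG1 among them as noncoding hosts of snoRNAs, 16 did (median -0.36). The share below 0 was 48.6% of all genes, and edgeR called 0 in either list. NACA, a subunit of the nascent polypeptide-associated complex, had 822 and 838 CPM in K700E against 1386 and 1536 CPM in WT (log2 change -0.80, SE 0.11, adjusted p 0.0607 by edgeR). HNRNPA1 and EIF4B had log2 changes of -0.74 and -0.75. Neighbouring genes were examined for the members only, so the part of neighbourhoods in the values of these lists was not tested. EEF1A1, the elongation factor that brings aminoacyl-tRNA, had 15582 and 13701 CPM in K700E and 17775 and 18358 CPM in WT. NPM1, a nucleolar chaperone, was the 1 TOP gene above 0, at 0.09.

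Factors that build the ribosome lay on the other side of 0. Of 26 ribosome biogenesis factors tested, 18 had both K700E libraries above both WT libraries (26.4% of all genes) and 2 had both below (28.2%). The median log2 change was 0.41. edgeR called 0, with 11 at an unadjusted p under 0.05, all higher (10.8% of all genes were higher at that threshold). LTV1, which carries small subunit precursors out of the nucleus, had 108 and 138 CPM in K700E against 56.1 and 58.8 CPM in WT (log2 change 1.11, SE 0.16, adjusted p 0.0651). NOP16 had 29 and 45.6 CPM in K700E and 22.4 and 21.3 CPM in WT. SBDS, mutated in Shwachman-Diamond syndrome, was at -0.40 and FBL, the rRNA methyltransferase, at -0.18. Of 12 genes of RNA polymerase I and its factors, 6 were higher (26.4% of all genes) and 2 lower (28.2%) without overlap, with a median of 0.22 and 0 called. In the RefSeq table a tract at the start was found in 9 of 12 of the TOP genes with an entry (75%) and in 3 of 24 of the biogenesis factors (12.5%).

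**Figure D4:**
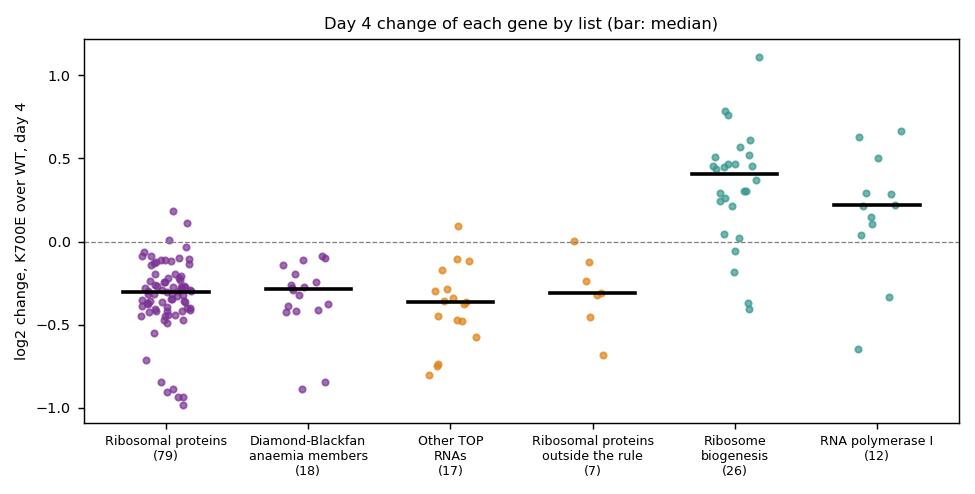
log2 change of K700E over WT at day 4 (vertical axis) of each gene, by list, with the number tested in brackets and a bar at the median. Ribosomal proteins (-0.30), other TOP RNAs (-0.36) and ribosomal proteins outside the choice by symbol (-0.31) have medians below 0, and ribosome biogenesis factors (0.41) and RNA polymerase I genes (0.22) above it; no gene shown was called by edgeR.

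The second comparison set the libraries labelled K700E against those labelled WT at day 8. edgeR called 0 of 13990 genes (0%) and 0 members, with 408 genes (2.92%) and 2 members at an unadjusted p under 0.05, and DESeq2 called 27 genes and 0 members. The members' median log2 change was 0.06, at -0.02 in the large and 0.19 in the small subunit. Of 79 members, 7 had both libraries labelled K700E above both labelled WT (8.86%, against 19% of all genes) and 5 had both below (6.33%, against 13.2%). The median turned to -0.24 without labelled K700E replicate 1 and to -0.14 without labelled WT replicate 1, and was 0.33 without labelled K700E replicate 2 and 0.30 without labelled WT replicate 2. RPS29, a small zinc-binding protein of the small subunit, had 459 and 287 CPM in the libraries labelled K700E against 130.2 and 169 CPM in those labelled WT (log2 change 1.29, SE 0.32, adjusted p 1.00 by edgeR). At day 4 it had 129 and 127 CPM in K700E against 171 and 174 CPM in WT (log2 change -0.41). RPS29 was 1 of 7 members whose groups did not overlap on either day and lay in opposite directions (8.86% of the members, against 8.69% of all genes). The difference between the days was tested by edgeR in a model of all 8 libraries: 0 of 14902 genes were called (0%), 1371 (9.2%) and 12 members had an unadjusted p under 0.05, and the lowest adjusted p of a member was 0.472, in RPS29.

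The third comparison asked which acceptors the members used. Acceptors that share a donor were compared with edgeR's diffSpliceDGE over all genes, and use is the percent of the donor's junction reads that go to the acceptor. At day 4, 14 of 522 acceptors at 76 members were called (2.68%, against 0.76% of 69838 acceptors of all genes), 11 higher (0.57% of all acceptors) and 3 lower (0.19%), in 11 genes. The acceptors of RPL24 and RPL27A were named when the genes were chosen and are given without a test. The other 12 made up 2.31% of 520, and without those of RPL4 and RPS3A, set aside below, 10 were left. Members' donors were covered by a median of 17521 reads per library, against 309 for all donors tested, and the part of this depth in the share called was not tested. No called acceptor of a member differed by 5 percentage points (0.468% of all acceptors were called and did), and 14 that were not called did. Of the 14 called, 3 (in RPL24, RPL4 and RPS3A) had under 5 reads in both WT libraries and so passed the filter on reads through K700E alone; their calls support nothing. The count depended on single libraries: 7 member acceptors were called without K700E replicate 1, 6 without K700E replicate 2, 3 without WT replicate 1 and 2 without WT replicate 2. Those of RPL24, RPL4 and RPS3A could not be tested when either K700E library was left out. limma's diffSplice called 16 member acceptors, 10 of them among the 14. In a model of all 8 libraries under their labels 0 were called.

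Cryptic acceptors that SF3B1 hotspot mutants favour lie a short way before the reference acceptor. Of 50 acceptors 1 to 50 nt upstream of a member's reference acceptor, 7 were called higher in K700E (14%, against 9.14% of 2506 in all genes), and none was called lower, though 8 had both K700E libraries below both WT libraries. Leaving out RPL24 and RPL27A it was 5 of 48 (10.4%), near the share in all genes. The 5 include RPL4, which passed the filter on reads through K700E alone, so no support is drawn from this share. Among donors with at least 1000 reads, 69 of 598 such acceptors of all genes were called higher (11.5%). Of the 50, 29 had a higher mean use in K700E, and the median use was 0.0400% in K700E and 0.0324% in WT, so most were rare in both.

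In RPL24, a large subunit protein that reaches across to the small subunit, the cryptic acceptor ended an intron at chr3:101682510-101682770 on the minus strand, 17 nt before the reference acceptor and not annotated. It took 443 of 16912 and 335 of 14703 reads in the K700E libraries, 2.62% and 2.28%, against 2 of 15879 and 4 of 19681 reads in the WT libraries, 0.0126% and 0.0203%. The exact 95% intervals, which cover counting error only, reached down to 2.04% in K700E and up to 0.0520% in WT. At day 8 it took 0.129% and 2.61% in the libraries labelled K700E and 0% and 3.56% in those labelled WT. Replicate 1 labelled WT had 0 of 9333 reads. That library held few rare junctions, so no limit on use is drawn from a 0 in it, here or at the acceptors below. The acceptor lies in the coding part of the gene. With the 17 nt added the frame shifts, and reading from the start codon of RPL24-201 would end after 148 codons, where the reference has 157. That stop lies in the last of 6 exons, 37 nt after the last junction.

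RPL27A, a large subunit protein, used an unannotated acceptor of the intron chr11:8683266-8683989 on the plus strand, 16 nt before the reference. It took 640 of 33924 and 391 of 27970 reads in K700E, 1.89% and 1.40%, against 26 of 31460 and 17 of 35459 reads in WT, 0.0826% and 0.0479%. At day 8 it took 0.0361% and 0.816% in the libraries labelled K700E and 0% and 0.667% in those labelled WT. The added 16 nt shift the frame, and reading would end after 38 codons where the reference has 148, 217 nt before the last exon junction. In the windows printed above, both cryptic AG stand ahead of a run with no further AG up to the reference.

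The other 5 upstream acceptors called lay in RPS27A, RPS15A and RPL4 and were used in under 1% of reads. RPS27A (intron from 55234963 on chromosome 2, plus strand) rose at 2 acceptors, 18 and 15 nt upstream, both a multiple of 3 nt and both unannotated in its coding part. The first, ending at 55235409, took 0.437% and 0.348% in K700E against 0.0544% and 0.0471% in WT (adjusted p 4.29e-05 by edgeR). The second, ending at 55235412, took 0.347% and 0.281% in K700E against 0.0962% and 0.0638% in WT (adjusted p 0.00198). In both, the K700E libraries were clear of the WT libraries beyond their counting intervals. RPS15A, a small subunit protein, rose at an acceptor 17 nt upstream that is annotated in a transcript marked for nonsense-mediated decay (chr16:18788160-18788980, minus strand). It took 0.322% and 0.150% in K700E against 0.0289% and 0.0184% in WT (adjusted p 0.000670). A second, unannotated acceptor of the same intron, 13 nt upstream, took 0.208% and 0.185% in K700E against 0.0434% and 0.0429% in WT (adjusted p 0.0188).

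RPL4, a large subunit protein that lines the exit tunnel, had an unannotated acceptor 17 nt upstream (chr15:66500194-66500292, minus strand). It took 93 of 40842 and 62 of 39251 reads in K700E, 0.228% and 0.158%. In WT it took 2 of 36854 and 0 of 52064 reads. With the limit for 0 reads set at 3 reads, 0 of 52064 allows a use of up to 0.00576%. The acceptor passed the filter on reads through K700E alone, so no p is given. At day 8 this acceptor took 0.00374% and 0.147% in the libraries labelled K700E and 0% and 0.328% in those labelled WT. Over the 5 acceptors in RPS27A, RPS15A and RPL4 together, chosen as those called at day 4, the libraries labelled K700E at day 8 had 111 and 459 reads and those labelled WT 100 and 778 reads. The higher counts stood in the same day 8 libraries as high use of the 12 known targets.

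**Figure D5:**
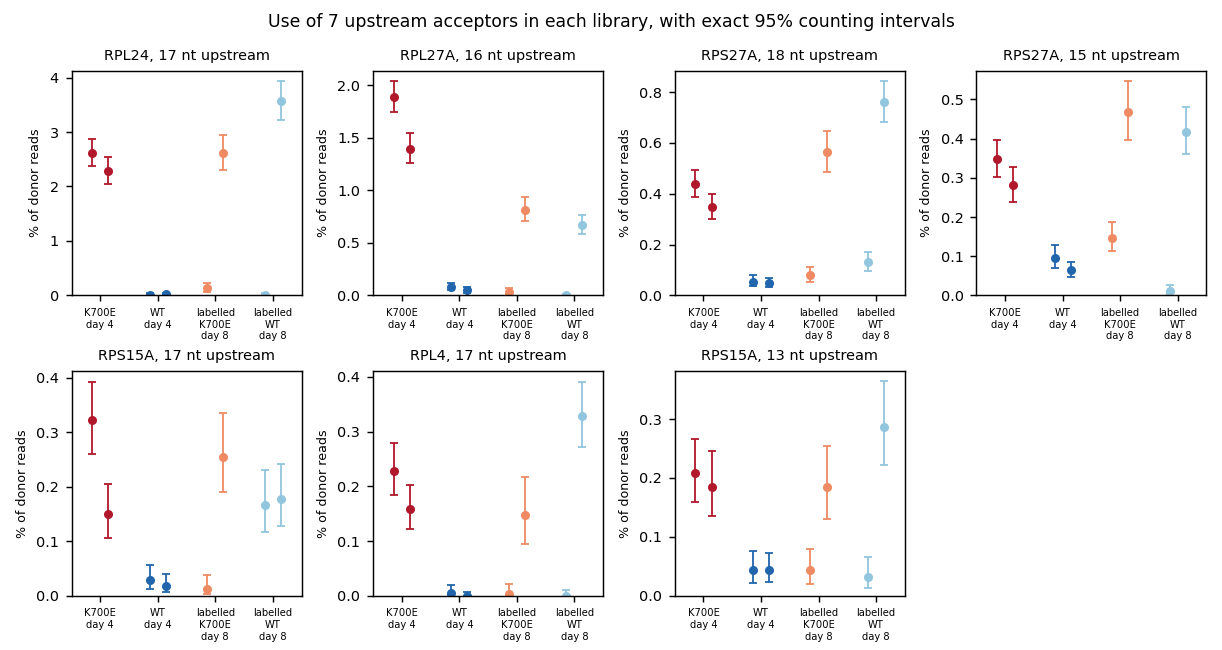
Use of 7 acceptors 13 to 18 nt upstream of a reference acceptor (vertical axis, percent of the donor's reads) in each library, with exact 95% counting intervals. They were picked as those called higher in K700E at day 4 among 50 acceptors upstream, so their separation at day 4 follows from the choice. Both K700E day 4 libraries lie above both WT day 4 libraries in each panel, and at day 8 one library of each label is high for 6 of the 7.

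Acceptors outside this window were called too. RPS3A, a small subunit protein, had an unannotated acceptor 117 nt downstream of the reference (chr4:151101163-151102987, plus strand), with 59 of 23136 and 73 of 18595 reads in K700E and 1 of 24979 and 1 of 24517 in WT, and it also passed the filter on reads through K700E alone. At day 8 it took 0% and 0.343% in the libraries labelled K700E and 0% and 0.202% in those labelled WT. RPL31, a protein at the tunnel exit and of Diamond-Blackfan anaemia, rose at annotated acceptors 12648 and 17275 nt downstream, both in protein-coding transcripts. The nearer took 2.68% and 1.76% in K700E against 0.817% and 0.884% in WT (adjusted p 0.0149 by edgeR, not called by limma's diffSplice), and the farther 1.40% and 0.817% in K700E against 0.162% and 0.308% in WT (adjusted p 0.00322).

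The 3 acceptors that fell lay 1022 to 2148 nt downstream of the reference acceptor. In RPL21, a large subunit protein, one 1022 nt downstream that only decay-marked transcripts use took 1.73% and 0.858% in K700E against 4.09% and 3.94% in WT (adjusted p 0.00827 by edgeR). In RPS3, a small subunit protein also described in DNA repair, a decay-marked acceptor 1668 nt downstream took 0.972% and 0.630% in K700E against 1.72% and 2.14% in WT (adjusted p 0.0259). In RPSA an unannotated junction to an annotated acceptor 2148 nt downstream took 0.398% and 0.130% in K700E against 0.868% and 0.893% in WT (adjusted p 0.0194, not called by limma's diffSplice). In each, K700E replicate 2 was the lowest of the 4 libraries.

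Of the other unannotated acceptors with the largest gains, these did not pass. RPS9 (4789 nt downstream) took 1.02% and 1.02% in K700E and 0.511% and 0.558% in WT (adjusted p 0.504 by edgeR). RPL17, RPL41 and RPS7 gained 0.693, 0.395 and 0.390 percentage points, with adjusted p of 0.802 or more. At day 8 edgeR called 0 of 63314 acceptors (0%), with 1765 (2.79%) and 7 member acceptors at an unadjusted p under 0.05, and limma's diffSplice called 0 as well.

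Introns of transcripts annotated for decay that are in no protein-coding transcript of the gene mark splice forms. Some ribosomal proteins are known to limit their own output through such forms. There were 70 such introns in 32 members, and they took 0.0635% and 0.0486% of member reads in K700E against 0.0818% and 0.0859% in WT at day 4, without overlap. At day 8 they took 0.0579% and 0.0445% in the libraries labelled K700E and 0.0427% and 0.0473% in those labelled WT. RPS9, whose splicing its own protein has been found to affect, had 1.85% and 0.797% in K700E and 3.24% and 3.28% in WT, in each day 4 library the largest share of any member. RPS27 had 0.637% and 0.478% in K700E and 1.12% and 1.11% in WT, while RPL35A, with 0.282% and 0.319% in K700E and 0.313% and 0.285% in WT, overlapped. The 7 members with decay-coupled splicing described in the literature (RPL3, RPL10A, RPL12, RPL13A, RPS3, RPS9 and RPS13) had a median log2 change in level of -0.24; 6 were lower without overlap (28.2% of all genes, 91.1% of all members) and 0 were called. Some alternative acceptors had like use in both groups. The acceptor 3 nt downstream of the reference in RPL11 took 15.5% and 15.1% in K700E and 14.9% and 13.7% in WT, and the one 238 nt downstream in RPL10 7.90% and 7.58% in K700E and 7.66% and 7.71% in WT.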

How the data were processed

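Strand-specific total RNA libraries were aligned with STAR 2.7.0e to hg38 with GENCODE releases 22 and 29, per the file headers; cutadapt is named in the submitters' processing notes. The deposited values are counts of reads per splice junction, unnormalized, and uniquely mapped reads were used. Counts were summed over annotated introns of 1 gene and tested with edgeR 4.0.16 (R 4.3.3), by quasi-likelihood with TMM factors, filterByExpr and Benjamini-Hochberg adjustment over all genes, separately at day 4 and day 8. Acceptors sharing a donor were tested with diffSpliceDGE, given at least 5 reads in 2 libraries and a mean of 20 reads per donor. DESeq2 1.42.0, limma 3.58.1, no filter, no TMM, multi-mapped reads, introns of 2 genes, an 8-library model, a replicate block and leaving out each library were alternatives. The fits were tested on simulated data. Total junction reads were 49338071 to 77750812 per library. Precision of the gene tests rested also on the spread between 2 libraries per group. edgeR's common coefficient of variation between libraries was 0.277 in the day 4 fit and 0.516 in the day 8 fit.

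The members, lists and named genes were chosen with earlier results of these data known. Genes were named by rule: any member called, the 6 highest and 6 lowest log2 changes, the 4 highest and 4 lowest levels per junction, a list by role, and the 10 unannotated acceptors with the largest gain. Some genes and acceptors that this rule gives are not reported here.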

Additional observations from a re-analysis of the deposited data

Results flagged for a closer look

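In 7 members every library labelled K700E lay on one side of the WT libraries at day 4 and on the other side at day 8 (8.86% of the 79, against 8.69% of 13327 genes tested at both days, so the members do not stand apart). The difference of the log2 change, day 8 minus day 4, was tested in a model of all 8 libraries and none passed. By edgeR's quasi-likelihood test it was 1.74 in RPS29 (SE 0.35, adjusted p 0.472), 1.00 in RPS23 (SE 0.35, adjusted p 0.513), 0.96 in RPS14 (SE 0.39, adjusted p 0.537) and 0.88 in RPL10 (SE 0.28, adjusted p 0.497). It was 0.59 in RPS21, 0.54 in RPS7 and -0.60 in RPS27L, with adjusted p of 0.594, 0.618 and 0.541. RPS27L alone of the 7 was higher in K700E at day 4 and lower in the libraries labelled K700E at day 8. The day 8 labels went against the known targets in 1 library of each group, and their part in these differences was not tested.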

How the results depend on the processing

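The members' median log2 change at day 4 kept its sign under every alternative run. The number of members called at day 4, 0 by edgeR, was 10 by DESeq2, 8 without the filter on low counts and 0 to 10 when 1 library was left out. With the replicate number as a block 1 member was called, RPL14, and 13 of the acceptors. Same-numbered libraries had deviations correlated at 0.140 at day 4 and 0.277 at day 8, and no label says that a number pairs libraries. Called acceptors, 14, numbered 0 at a change of 5 points or more, 0 in the 8-library model and 2 to 7 with 1 library left out. Those 1 to 50 nt upstream, 7, numbered 0, 0 and 2 to 4. The acceptors of RPL24, RPL4 and RPS3A could not be tested when either K700E library was left out, as too few libraries held reads. limma's diffSplice called 16, and did not call 4 of the 14: RPL4, RPS3A, RPSA and the nearer of RPL31. Members near 0 turned sign. RPL17 was at -0.0055 in the 8-library model, -0.12 with introns of 2 genes and -0.059 with multi-mapped reads, and ran from -0.087 to 0.10 with 1 library left out. Without TMM scaling RPL6 was at 0.028, RPS27A at 0.0082 and RPS4X at 0.064. With 1 library left out RPL6 ran from -0.46 to 0.24 and RPS4X from -0.087 to 0.011. The cause was not tested. Where an acceptor had 0 reads, a use below 3 reads of its donor's total could not be told from 0.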
